A study of Homo sapiens with 30 samples.

Results

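The 32 genes described here are published transcriptional targets of the tumour suppressor p53. They were taken as a fixed list, matched by GENCODE 29 symbol, and make up 32 of the 60554 gene identifiers counted. Their messenger RNA was measured in 5 established human T-ALL lines (T-ALL is acute lymphoblastic leukaemia of T-cell precursors), namely MOLT-16, PER-117, PEER, TALL-1 and Loucy. Each line received decitabine, a cytidine analogue that enters DNA and traps DNA methyltransferases, at 1 µM for 48 h, or only its solvent dimethyl sulfoxide (DMSO). Each line and treatment had 3 libraries, 30 in all, sequenced from the 3′ ends of polyadenylated RNA. The labels leave unsaid if a group's 3 libraries came from separate cultures. What the p-values measure is thus the spread among these libraries, which may be technical. For each gene the questions were whether it changed with decitabine in a line, and whether the change in MOLT-16 and PER-117 (called the pair below) differed from that in PEER, TALL-1 and Loucy. The 32 genes and the pair were chosen with earlier results of these data known. Counts over these genes are thus a description and no independent test.

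As background, p53 is a transcription factor that is kept low by the ubiquitin ligase MDM2 and accumulates after DNA damage or replication stress. It binds a response element built from adjacent half-sites and switches on genes that restrain p53 itself, stop the cell cycle, repair DNA, adjust redox state and metabolism, and promote cell death. In T-cell precursors this programme is best known from irradiated thymus, where it ends in apoptosis.

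For 26 of the 32 genes RefSeq promoter windows of 300 bases (GRCh38.p14, 250 bases before to 50 after a transcript start) were at hand, 39 windows in all. They were searched for the p53 response element, taken as 2 adjacent half-sites of 10 bases. Each half-site had to hold an intact core (CNNG with A or T at both inner positions, so CATG and its 3 like forms) and at most 3 mismatches were allowed in the 12 flanking positions. The element is its own reverse complement, so 1 search covered both strands. Such a match was found in 5 of the 39 windows (12.8%), against 150 of all 35116 windows (0.43%). The genes were listed as published p53 targets, so these shares are a description and no independent test. Some genes have more than 1 window. The 5 genes with a match are shown. Of them SESN1, RPS27L and GDF15 were called higher in both lines of the pair, as were 11 of all 28 members measured, and AEN and FAS were called in neither. MDM2, FDXR, PPM1D, BTG2, XPC and DRAM1 were also called higher in both lines and had windows without a match. A relation between match and response was not tested. Capitals mark the matched element, 5′ to 3′ on the strand of the gene.
SESN1: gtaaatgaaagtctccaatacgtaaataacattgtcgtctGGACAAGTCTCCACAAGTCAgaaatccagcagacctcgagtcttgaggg
RPS27L: aggagGGCCTAGAGCAGACAAGCCCgcccc
GDF15: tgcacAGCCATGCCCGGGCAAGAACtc
FAS: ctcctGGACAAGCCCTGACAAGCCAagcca
AEN: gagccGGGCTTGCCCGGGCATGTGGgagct
The SESN1 element has 3 mismatches and lies 49 to 30 bases before a start inside the SESN1 gene, outside its annotated exons (minus strand, printed stretch chr6:109008989-109009077). The RPS27L element has 3 mismatches and lies 69 to 50 bases before the start, in an exon annotated as UTR (minus strand, printed stretch chr15:63157522-63157551). The GDF15 element has 3 mismatches and lies 29 to 48 bases after the start, in an exon annotated as UTR and as coding (plus strand, printed stretch chr19:18386181-18386207). The FAS element has 2 mismatches and lies 122 to 103 bases before a start, in an exon of FAS that overlaps the antisense gene ACTA2 (plus strand, printed stretch chr10:88991304-88991333). The AEN element has 2 mismatches and lies 34 to 15 bases before the start, in an exon annotated as UTR (plus strand, printed stretch chr15:88621301-88621330). A match describes letters in these windows only, and binding was not measured.

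Depth ran from 2.20 M to 15.4 M reads on genes, with MOLT-16 the shallowest line (2.20 M to 5.26 M) and Loucy and PER-117 the deepest (at least 9.93 M). The unit of level is CPM, the usual depth-scaled read count, here on TMM-scaled library sizes. Of 13 T-cell markers 11 to 13 reached 1 CPM in every group, and their sum ran from 774 CPM in a PER-117 decitabine library to 19400 CPM in a MOLT-16 DMSO library. With decitabine 5 of the 13 were called lower in PER-117 (sums of 1110 to 1190 CPM in controls and 774 to 808 CPM in treated libraries), 7 in TALL-1, 1 each in PEER and Loucy and 0 in MOLT-16. Loucy also had 1 called higher. In MOLT-16 edgeR gave 4 lower at an unadjusted p under 0.05, DESeq2 called 1, and 4 were called without the mixed libraries described next. Markers of other cell types summed to 25.9 to 107 CPM, and of 8 measured 3 were called higher in PEER, 3 in Loucy, 2 in TALL-1, 1 in MOLT-16 and 1 in PER-117. In PER-117 1 was also called lower. Of the 8 log2 changes 7 were positive in PEER, 6 in Loucy, 2 in TALL-1, 7 in MOLT-16 and 3 in PER-117. The part of the T-cell and other markers in the results on p53 targets was not tested. In 3 DMSO libraries, genes restricted to another line stood at a raised share of their level in that line. Such genes were picked by their levels in the decitabine libraries, so mixing within those libraries was not examined. By a strict rule, which found at most 2 such genes for a line and none for MOLT-16, the share summed over the other lines was 12.6% in TALL-1 DMSO replicate 3, 23% in MOLT-16 DMSO replicate 3 and 1.59% in PEER DMSO replicate 2, while none of the remaining 12 controls exceeded 0.637%. A looser rule with 11 to 37 genes for each line, chosen after the data were seen, gave 19.9%, 26.1% and 19.1%, against at most 1.49%. The 3 are called the mixed libraries, and results are given with and without them where they matter. In bulk RNA a change in the make-up of the cells and a change in RNA per cell cannot be told apart.

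Of the 32 genes, 28 passed the filter on low counts. PER-117 responded most widely: 21 of the 28 rose with decitabine and none fell. In MOLT-16 11 of 28 rose, and all 11 were among the 21. TALL-1 had 6 rises and 1 fall, Loucy 6 rises and PEER 2 rises. Called here means an adjusted p below 0.05 in edgeR's quasi-likelihood test. Among all 15081 genes tested the shares called higher were 8.67% in PER-117, 2.19% in MOLT-16, 6.74% in TALL-1, 10.6% in Loucy and 3.54% in PEER. The shares called lower were 3.16%, 1.01%, 6.12%, 4.13% and 0.961% in the same order. No member was called lower in PER-117, MOLT-16, Loucy or PEER; at an unadjusted p under 0.05 edgeR gave 0, 2, 3 and 3 lower members there, and DESeq2 called 0, 0, 0 and 1. The median log2 change of the 28 genes was 0.95 in PER-117 and 0.89 in MOLT-16, and 0.17, 0.11 and 0.10 in TALL-1, Loucy and PEER. Over all genes these medians lay between -0.02 and 0.05.

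**Figure D1:**
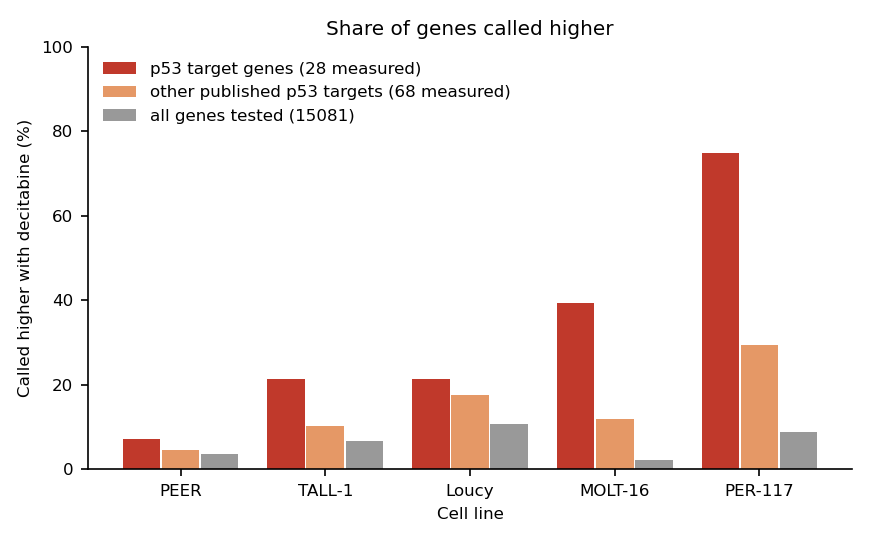
Bars give the percentage of genes called higher with decitabine (adjusted p under 0.05) in each line, for the 28 measured p53 target genes, for 68 other published p53 targets and for all 15081 genes tested. The target genes reach their highest share in PER-117 (21 of 28) and MOLT-16 (11 of 28), where 8.67% and 2.19% of all genes were called.

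The counts moved when the 3 mixed libraries were left out, which also raised the number of genes tested. In that fit 30 members were measured. MOLT-16 then had 16 higher and 2 lower members, with backgrounds of 9.78% and 7.93%, and all 11 earlier rises were among the 16. PER-117 had 24 higher and 0 lower members (11.9% and 5.6%), TALL-1 6 and 3 (7.46% and 6.49%), Loucy 8 and 2 (14.5% and 8.0%), and PEER 4 and 1 (4.7% and 0.896%). When MOLT-16 was fitted alone, with its own spread, only BTG2 and RPS27L of the 11 were called, out of 0.522% of all genes called higher, although 24 of 27 members measured there had a positive change. Leaving out each of the 30 libraries in turn, 8 of the 11 MOLT-16 calls and 18 of the 21 PER-117 calls passed in every fit. The other 6 are pointed out with their genes.

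**Figure D2:**
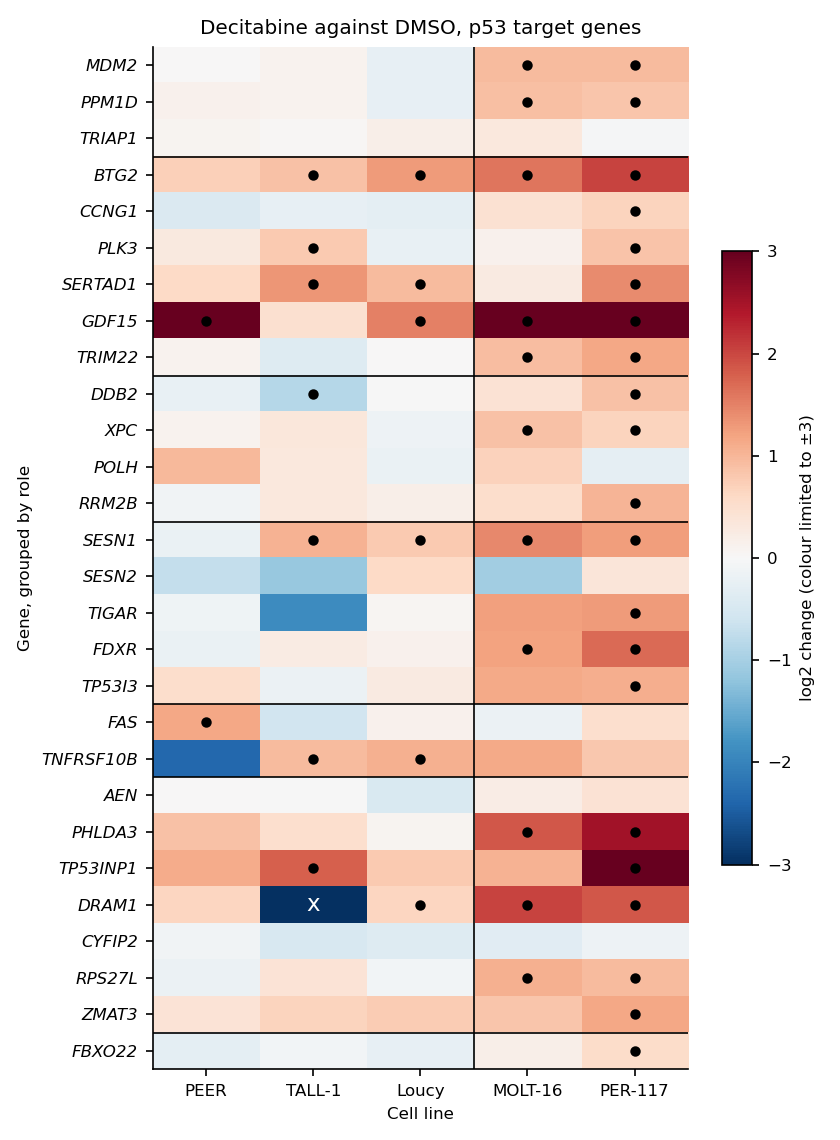
Colour gives the log2 change with decitabine against DMSO for each of the 28 measured genes (rows, grouped by role) in each line (columns, with the pair at the right of the vertical line), from 3 libraries a group. A dot marks an adjusted p under 0.05 and a cross a change fitted from 3 or fewer reads in a treatment; red cells with dots fill most of the PER-117 column and 11 cells of the MOLT-16 column.

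Of the genes that restrain p53, MDM2 and PPM1D rose in both lines of the pair. Gene positions are on GRCh38, from GENCODE 29. MDM2 (chromosome 12, 68808176 to 68850686), which encodes the ubiquitin ligase that degrades p53, stood at 117, 86.96 and 117 CPM with DMSO and 201, 176 and 245 CPM with decitabine in MOLT-16. In PER-117 MDM2 stood at 85.05, 79.2 and 85.9 CPM with DMSO and 169.7, 157 and 153 CPM with decitabine. In both lines all decitabine libraries lay above all DMSO libraries (log2 0.95, SE 0.15, adjusted p = 0.000218 in MOLT-16; log2 0.94, SE 0.14, adjusted p = 3.86e-05 in PER-117). MDM2 gave log2 values of -0.24 to 0.11 in the other 3 lines, where treated and control libraries overlapped. PPM1D (chromosome 17, 60600183 to 60666280), a phosphatase that dampens p53 and checkpoint signals, held 26.3, 11.6 and 25.8 CPM with DMSO and 43.9, 35.7 and 39.9 CPM with decitabine in MOLT-16. PPM1D held 27.3, 29.6 and 22.4 CPM with DMSO and 52.8, 47.6 and 41.9 CPM with decitabine in PER-117. Treated libraries were again all above controls (log2 0.90, SE 0.23, adjusted p = 0.0226; log2 0.84, SE 0.20, adjusted p = 0.00486). The lowest MOLT-16 control was DMSO replicate 2, and the MOLT-16 call was lost without decitabine replicate 1, decitabine replicate 3 or DMSO replicate 2 (log2 0.60 to 0.90, adjusted p 0.0642 to 0.139). In Loucy all PPM1D values with decitabine were below those with DMSO, by -0.25 on the log2 scale, a difference that did not pass (adjusted p = 0.445). TRIAP1, an inhibitor of apoptosis, passed in no line, with log2 changes of -0.04 to 0.32.

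**Figure D3:**
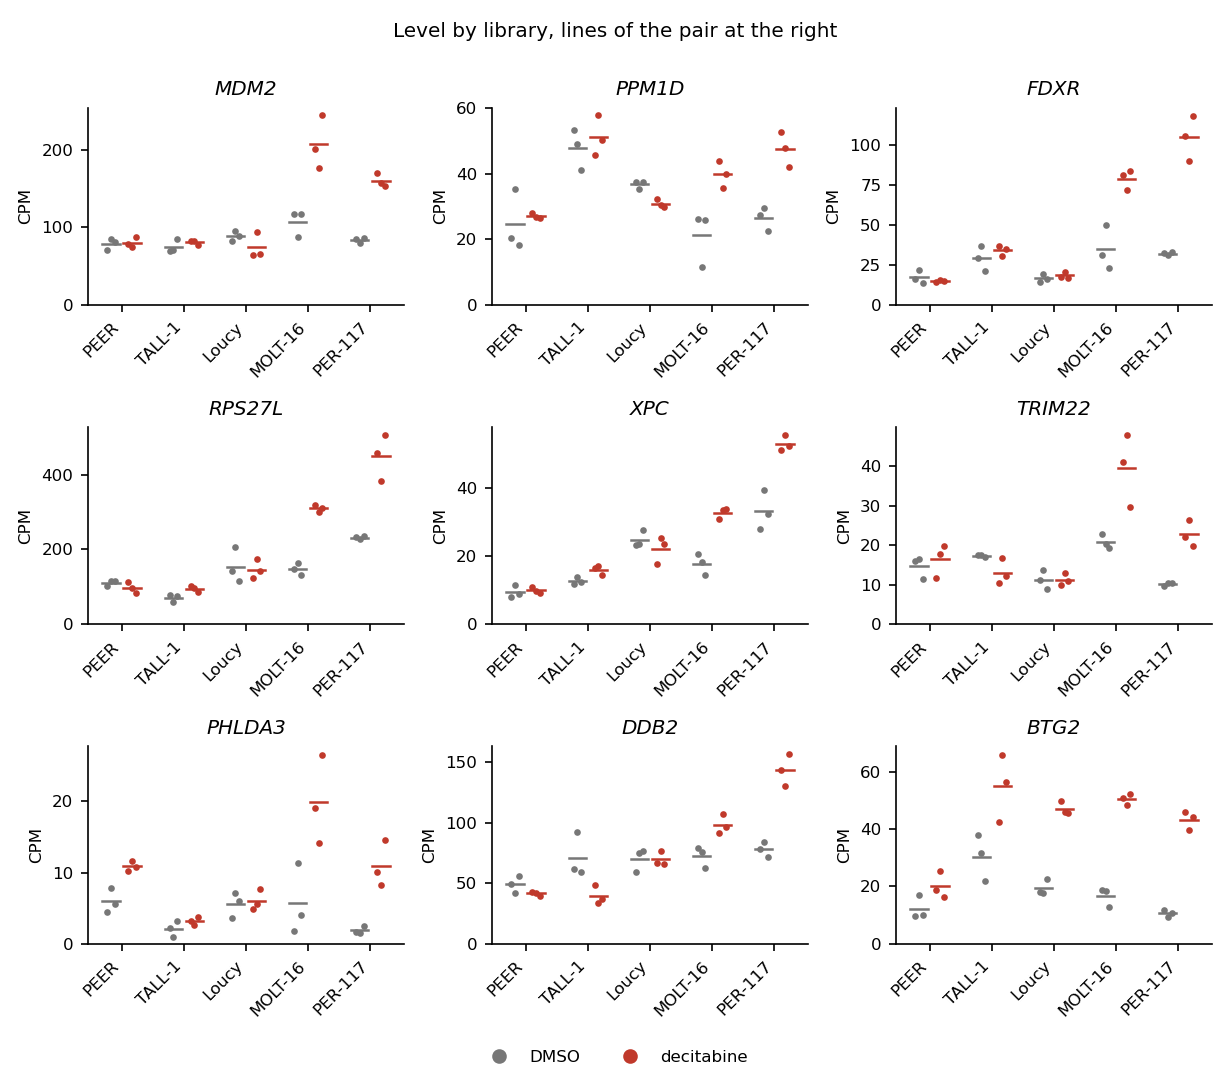
Each panel plots the CPM of 1 gene in every library (points) with the group mean (bar), DMSO in grey and decitabine in red, by line; each vertical axis starts at 0. In PER-117 all red points lie above all grey points in the 9 panels, as they do in MOLT-16, while in PEER and Loucy the colours overlap in most panels. In TALL-1 all red points lie above the grey for RPS27L, XPC and BTG2 and below them for TRIM22 and DDB2, and the colours overlap in the remaining panels.

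Of the genes of cell-cycle arrest and growth control, BTG2, TRIM22 and GDF15 rose in both lines of the pair. CCNG1, SERTAD1 and PLK3 were called in PER-117 and not in MOLT-16. BTG2 (chromosome 1, 203305491 to 203309602), an antiproliferative co-factor of RNA deadenylation, rose in 4 of the 5 lines, as did SESN1 and GDF15. It stood at 11.8, 9.49 and 10.6 CPM with DMSO and 45.9, 39.7 and 44.2 CPM with decitabine in PER-117. In MOLT-16 BTG2 stood at 18.9, 18.5 and 12.8 CPM with DMSO and 50.8, 48.4 and 52.1 CPM with decitabine. The treated libraries were all higher in both lines (log2 2.02, SE 0.21, adjusted p = 1.09e-07; log2 1.604, SE 0.22, adjusted p = 4.78e-05). BTG2 also rose in Loucy (log2 1.27, SE 0.20, adjusted p = 2.65e-05) and TALL-1 (log2 0.87, SE 0.21, adjusted p = 0.00515), the latter not called without decitabine replicate 2 (log2 0.71, adjusted p = 0.05003). PEER gave log2 0.72, SE 0.23, adjusted p = 0.0673 for BTG2, and log2 1.05 with adjusted p = 0.00138 without the mixed libraries. TRIM22 (chromosome 11, 5689689 to 5737089), an antiviral tripartite-motif protein, held 22.7, 20.2 and 19.4 CPM with DMSO and 40.95, 47.95 and 29.6 CPM with decitabine in MOLT-16. TRIM22 held 9.61, 10.4 and 10.6 CPM with DMSO and 22.1, 26.4 and 19.9 CPM with decitabine in PER-117. Both sets of treated libraries cleared the controls (log2 0.92, SE 0.22, adjusted p = 0.0148; log2 1.16, SE 0.21, adjusted p = 0.000259), and the MOLT-16 call was lost without decitabine replicate 1, decitabine replicate 2 or DMSO replicate 2 (log2 0.78 to 0.89, adjusted p 0.0524 to 0.0798). Its changes in the other lines were -0.38 to 0.11.

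CCNG1 (chromosome 5, 163437569 to 163446151), which encodes the atypical cyclin G1, rose in PER-117 from 40.4, 38.2 and 47.4 to 68.6, 71.4 and 61.1 CPM. The groups did not overlap (log2 0.68, SE 0.18, adjusted p = 0.0129), but the call was lost without decitabine replicate 2, DMSO replicate 1 or DMSO replicate 2 (log2 0.61 to 0.65, adjusted p 0.0537 to 0.0779). MOLT-16 gave CCNG1 a change of 0.46 that did not pass, and the other lines -0.43 to -0.25. SERTAD1 (chromosome 19, 40421592 to 40426025), a transcriptional co-regulator that binds CDK4, showed another pattern. It stood at 6.26, 5.11 and 7.45 CPM with DMSO and 16.7, 15.3 and 18.6 CPM with decitabine in PER-117, without overlap (log2 1.43, SE 0.20, adjusted p = 8.73e-06). In TALL-1 SERTAD1 averaged 10.5 ± 0.309 CPM with DMSO and 26.6 ± 4.17 CPM with decitabine (mean ± SD, n = 3; log2 1.33, SE 0.21, adjusted p = 5.87e-05) and it rose in Loucy as well, 10.9 ± 1.28 CPM against 21.1 ± 1.45 CPM (log2 0.95, SE 0.18, adjusted p = 0.000412). In MOLT-16 it held 11.5, 11.9 and 10.7 CPM with DMSO and 16.3, 15.7 and 8.29 CPM with decitabine, with overlapping groups (log2 0.27, SE 0.23, adjusted p = 0.532). PEER libraries did not overlap for SERTAD1, but the difference did not pass (log2 0.61, SE 0.19, adjusted p = 0.0719). PLK3, a stress-responsive polo-like kinase, was called in PER-117 (log2 0.85, SE 0.25, adjusted p = 0.0248) and TALL-1 (log2 0.79, SE 0.27, adjusted p = 0.0475). Both calls depended on single libraries: the PER-117 libraries overlapped and the call was lost without decitabine replicate 1, DMSO replicate 2 or DMSO replicate 3 (log2 0.58 to 0.78, adjusted p 0.112 to 0.187), and the TALL-1 call was lost in 20 of the 30 fits with 1 library left out (adjusted p up to 0.196).

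GDF15 (chromosome 19, 18374731 to 18389176), a secreted stress cytokine, had the largest fitted rise with decitabine in MOLT-16 among the 28 members past the filter and was raised in 4 lines. In PER-117 it stood at 4.02, 2.29 and 4.64 CPM with DMSO and 33.96, 21.7 and 33.3 CPM with decitabine. In MOLT-16 it stood at 0.766, 1.49 and 0.213 CPM with DMSO and 6.07, 12.2 and 3.55 CPM with decitabine, from 9 and 65 reads. All treated libraries were above all controls in both lines (log2 3.02, SE 0.37, adjusted p = 1.15e-06; log2 3.17, SE 0.62, adjusted p = 0.00299). The MOLT-16 change was log2 3.83 without DMSO replicate 2. PEER rose from 0.445 ± 0.304 to 3.98 ± 1.91 CPM (log2 3.02, SE 0.67, adjusted p = 0.00674), a call lost without DMSO replicate 1 (log2 2.56, adjusted p = 0.0505) and a change of log2 3.64 without DMSO replicate 2. Loucy rose from 0.7395 ± 0.489 to 2.2 ± 0.336 CPM (log2 1.51, SE 0.46, adjusted p = 0.0228), a call lost without decitabine replicate 1, decitabine replicate 3, DMSO replicate 1 or DMSO replicate 3 (log2 1.18 to 1.55, adjusted p 0.0516 to 0.125) and a change of log2 2.18 without DMSO replicate 2. TALL-1 held 6 reads with DMSO and 8 with decitabine (ratio 1.398, 95% counting interval 0.425 to 4.89).

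Of the DNA repair and nucleotide supply genes, XPC rose in both lines of the pair, and DDB2 and RRM2B in PER-117. XPC (chromosome 3, 14145147 to 14178783), the damage sensor of nucleotide excision repair, stood at 20.7, 18.5 and 14.5 CPM with DMSO and 30.96, 33.8 and 33.9 CPM with decitabine in MOLT-16. XPC stood at 27.9, 39.5 and 32.5 CPM with DMSO and 51.4, 55.7 and 52.5 CPM with decitabine in PER-117. Treated libraries were all higher in both lines (log2 0.88, SE 0.18, adjusted p = 0.00402; log2 0.67, SE 0.15, adjusted p = 0.00299), while the other lines gave -0.16 to 0.34. DDB2 (chromosome 11, 47214465 to 47239240), which recognises ultraviolet photoproducts in the same pathway, held 78.5, 83.7 and 71.5 CPM with DMSO and 144, 130.5 and 157 CPM with decitabine in PER-117, without overlap (log2 0.88, SE 0.15, adjusted p = 0.0001896). DDB2 was the only member called lower in a line: TALL-1 held 62.02, 92.2 and 59.4 CPM with DMSO and 48.3, 33.7 and 36.7 CPM with decitabine, with all treated libraries below the controls (log2 -0.85, SE 0.17, adjusted p = 0.0007596). MOLT-16 libraries did not overlap for DDB2 either, but the change did not pass (log2 0.44, SE 0.16, adjusted p = 0.127). RRM2B (chromosome 8, 102204502 to 102239118), the p53-inducible small subunit of ribonucleotide reductase, held 8.72, 9.39 and 10.5 CPM with DMSO and 18.6, 19.3 and 19.6 CPM with decitabine in PER-117, without overlap (log2 1.01, SE 0.18, adjusted p = 0.000321). MOLT-16 gave RRM2B 0.52 with overlapping groups (adjusted p = 0.138). POLH, a polymerase that copies past damaged bases, passed in no line, with changes from -0.27 in PER-117 to 0.96 in PEER.

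Among the redox and metabolic genes, FDXR and SESN1 rose in both lines of the pair. FDXR (chromosome 17, 74862497 to 74873031), the mitochondrial ferredoxin reductase, stood at 32.3, 30.99 and 32.7 CPM with DMSO and 106, 89.9 and 118 CPM with decitabine in PER-117. In MOLT-16 it stood at 31.2, 50.03 and 23.03 CPM with DMSO and 81.1, 71.4 and 83.3 CPM with decitabine. Treated libraries were all above controls (log2 1.71, SE 0.20, adjusted p = 5.86e-07; log2 1.196, SE 0.21, adjusted p = 0.00101), and the other lines gave -0.20 to 0.24. SESN1 (chromosome 6, 108986437 to 109094819), a sestrin that restrains mTORC1 signalling, held 30.6, 19.6 and 17.3 CPM with DMSO and 74.8, 63.6 and 43.8 CPM with decitabine in MOLT-16. SESN1 held 14.1, 11.2 and 16.9 CPM with DMSO and 31.5, 35.99 and 32.4 CPM with decitabine in PER-117. Its groups did not overlap in either line (log2 1.45, SE 0.20, adjusted p = 5.83e-05; log2 1.24, SE 0.20, adjusted p = 4.95e-05). SESN1 rose as well in TALL-1 (log2 1.04, SE 0.23, adjusted p = 0.00277) and Loucy (log2 0.79, SE 0.19, adjusted p = 0.00393), and PEER gave -0.21 (adjusted p = 0.681).

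TIGAR (chromosome 12, 4307763 to 4354593), a phosphatase that lowers glycolytic flux, rose in PER-117 from 6.04, 6.57 and 4.96 to 16.1, 14.6 and 11.7 CPM. The groups did not overlap (log2 1.27, SE 0.38, adjusted p = 0.0252), but the call was lost without decitabine replicate 1, decitabine replicate 2, DMSO replicate 1, DMSO replicate 2 or DMSO replicate 3 (log2 1.16 to 1.36, adjusted p 0.0633 to 0.0986). In MOLT-16 TIGAR held 7.15, 2.08 and 11.1 CPM with DMSO and 21.8, 9.297 and 16.2 CPM with decitabine, with overlap through the mixed DMSO replicate 3. That change was 1.22 (adjusted p = 0.115) with all libraries and 1.77 (adjusted p = 0.00385) without the mixed ones. In TALL-1 TIGAR had 24 reads with DMSO, with the highest control in the mixed replicate 3, and 6 with decitabine. The TALL-1 change was -1.89 (adjusted p = 0.204) with all libraries and -0.64 (adjusted p = 0.784) without the mixed ones. PEER and Loucy gave TIGAR -0.13 and 0.06, without passing. TP53I3 (chromosome 2, 24077433 to 24085861), a quinone oxidoreductase, held 5.59, 5.22 and 4.53 CPM with DMSO and 11.8, 9.66 and 10.98 CPM with decitabine in PER-117, without overlap (log2 1.08, SE 0.28, adjusted p = 0.00876). In MOLT-16 TP53I3 had 6 reads with DMSO, all of them in the mixed replicate 3, and 11 with decitabine.

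SESN2, the other sestrin measured, was called in no line. Its controls were uneven: 549, 706 and 97.7 CPM in the MOLT-16 DMSO libraries, 208, 212 and 63.5 CPM in TALL-1 and 200.1, 51.5 and 86.6 CPM in PEER. With decitabine the MOLT-16 libraries held 202, 312 and 140.5 CPM. The low controls in MOLT-16, TALL-1 and PEER were the mixed libraries. SESN2 is also a known target of the stress factor ATF4, and 20 other ATF4 and CHOP targets summed to 7790, 7360 and 3020 CPM in the same 3 MOLT-16 controls and to 5110, 5890 and 2220 CPM in the TALL-1 controls. Their part in the SESN2 values was not tested. Without the mixed libraries SESN2 was called lower in MOLT-16 (log2 -1.57, adjusted p = 3.45e-05), TALL-1 (log2 -1.52, adjusted p = 4.16e-05) and PEER (log2 -1.04, adjusted p = 0.00713). With each line fitted alone it was called lower in TALL-1 (log2 -1.12, adjusted p = 0.0356) and higher in Loucy (log2 0.59, adjusted p = 0.00486).

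**Figure D4:**
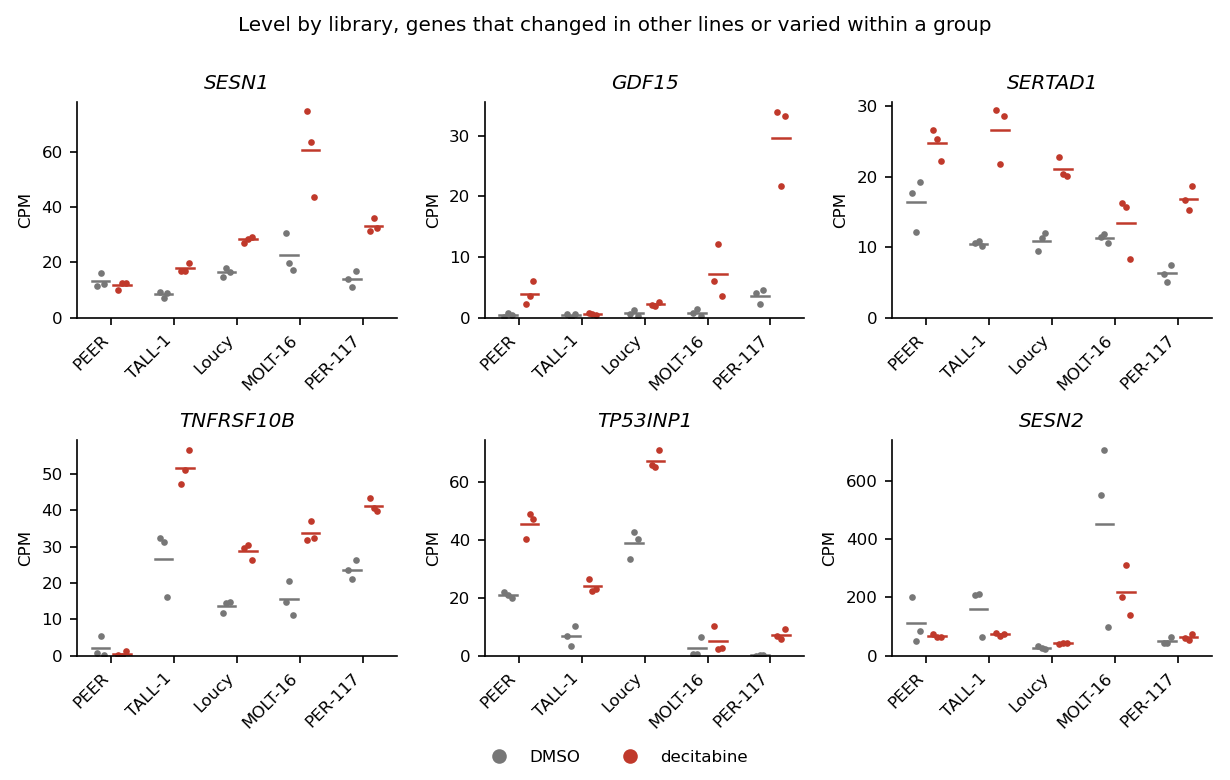
Each panel plots the CPM of 1 gene in every library (points) with the group mean (bar), DMSO in grey and decitabine in red, by line; each vertical axis starts at 0. SERTAD1 was called higher in TALL-1, Loucy and PER-117, did not pass in PEER and overlaps in MOLT-16, TP53INP1 has its lowest controls in PER-117, and the SESN2 controls of MOLT-16 range from 97.7 to 706 CPM.

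The death receptors were called in neither line of the pair. FAS (chromosome 10, 88990582 to 89015785), the receptor for FAS ligand, was called in PEER alone, where it held 4.41, 5.92 and 4.13 CPM with DMSO and 8.98, 10.6 and 13.7 CPM with decitabine. The PEER groups did not overlap (log2 1.16, SE 0.27, adjusted p = 0.00989), and the call was lost without decitabine replicate 3 (log2 1.002, adjusted p = 0.0573). MOLT-16 had the highest FAS level of the DMSO groups, 25.04 ± 5.33 CPM (mean ± SD, n = 3), and -0.18 was its log2 change with decitabine. TNFRSF10B (chromosome 8, 23020133 to 23069179), a receptor for the ligand TRAIL, rose in Loucy from 13.7 ± 1.72 to 28.7 ± 2.12 CPM (log2 1.07, SE 0.31, adjusted p = 0.0168), a call lost without DMSO replicate 1 (log2 0.96, adjusted p = 0.0839). TALL-1 averaged 26.6 ± 8.99 CPM with DMSO and 51.6 ± 4.75 CPM with decitabine for this receptor (log2 0.96, SE 0.32, adjusted p = 0.0467), a call lost in 23 of the 30 fits with 1 library left out. In MOLT-16 and PER-117 all treated libraries were above the controls for TNFRSF10B as well, without passing (1.14, adjusted p = 0.0701; 0.81, adjusted p = 0.0867). Without the mixed libraries both passed (log2 0.90, adjusted p = 0.00411; log2 0.81, adjusted p = 0.000331). PEER had 34 TNFRSF10B reads with DMSO, mostly in the mixed replicate 2 at 5.53 CPM, and 7 with decitabine.

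Genes of apoptosis and of mitochondrial or autophagic clearance included the largest changes. PHLDA3 (chromosome 1, 201464383 to 201469237), which blocks AKT at the membrane, stood at 1.68, 1.56 and 2.48 CPM with DMSO and 10.1, 8.24 and 14.6 CPM with decitabine in PER-117. In MOLT-16 it stood at 1.79, 11.3 and 4.05 CPM with DMSO and 19.01, 14.2 and 26.4 CPM with decitabine. Treated libraries were all higher in both lines (log2 2.52, SE 0.40, adjusted p = 5.64e-05; log2 1.85, SE 0.41, adjusted p = 0.00857). The MOLT-16 controls were uneven: the call was lost without decitabine replicate 3 or DMSO replicate 1 (log2 1.43 to 1.62, adjusted p 0.0539 to 0.05498), and the change was log2 2.71 without DMSO replicate 2. RPS27L (chromosome 15, 63125872 to 63158021), a ribosomal protein paralogue that acts on MDM2, held 147, 164 and 132 CPM with DMSO and 318, 301 and 312 CPM with decitabine in MOLT-16. RPS27L held 233, 227 and 236 CPM with DMSO and 458, 384 and 505 CPM with decitabine in PER-117. It rose without overlap in both lines (log2 1.07, SE 0.17, adjusted p = 0.000268; log2 0.95, SE 0.17, adjusted p = 0.000181) and gave log2 values of -0.18 to 0.41 elsewhere.

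DRAM1 (chromosome 12, 101877351 to 102012130), a lysosomal protein of the autophagy programme, stood at 2.79, 2.19 and 2.91 CPM with DMSO and 9.17, 9.47 and 10.2 CPM with decitabine in PER-117. In MOLT-16 DRAM1 stood at 1.53, 0.893 and 1.92 CPM with DMSO and 5.88, 6.36 and 6.32 CPM with decitabine. Both rises were without overlap (log2 1.86, SE 0.26, adjusted p = 1.4e-05; log2 2.03, SE 0.37, adjusted p = 0.00196). On unstranded counts, which add 15 opposite-strand reads to the 18 DRAM1 reads of the MOLT-16 controls, the MOLT-16 change was log2 1.19. DRAM1 was also called in Loucy (log2 0.65, SE 0.22, adjusted p = 0.0473), where the call was lost in 20 of the 30 fits with 1 library left out. TALL-1 had 3 DRAM1 reads with DMSO and 0 with decitabine, too few for a fold.

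TP53INP1 (chromosome 8, 94925972 to 94949411), which links p53 to autophagic cell death, had the largest fitted change of any member. In PER-117 it held 0, 0.104 and 0.432 CPM with DMSO and 6.66, 5.78 and 9.32 CPM with decitabine, from 5 and 252 reads (ratio 40.1, 95% counting interval 16.97 to 125; log2 5.21, SE 0.67, adjusted p = 2.37e-06). The PER-117 change was log2 6.70 without DMSO replicate 3, which held most of the control reads. With opposite-strand reads added (89 with DMSO and 97 with decitabine) it was log2 1.56. TALL-1 also had a rise of TP53INP1, with 6.76 ± 3.505 CPM in controls and 23.9 ± 2.18 CPM in treated libraries (log2 1.78, SE 0.39, adjusted p = 0.00271), or log2 1.04 on unstranded counts. In MOLT-16 it held 0.766, 0.596 and 6.61 CPM with DMSO and 10.2, 2.45 and 2.76 CPM with decitabine, with the highest control in the mixed replicate 3. The MOLT-16 change was 1.05 (adjusted p = 0.296) with all libraries and 3.12 (adjusted p = 0.00133) without the mixed ones. PEER and Loucy gave 1.11 and 0.79, with no overlap but without passing. Both passed without the mixed libraries (adjusted p = 0.00489 and 0.00348). ZMAT3 (chromosome 3, 179017223 to 179072279), a zinc-finger regulator of RNA splicing, rose in PER-117 from 71.6, 68.1 and 58.8 to 154, 155 and 134 CPM. The PER-117 groups did not overlap (log2 1.16, SE 0.27, adjusted p = 0.00337). ZMAT3 differences in the other 4 lines, 0.41 to 0.82, did not pass with all libraries. With the mixed libraries left out ZMAT3 was called higher in TALL-1 (log2 1.07, adjusted p = 0.0144) and Loucy (log2 0.74, adjusted p = 0.00795), and in Loucy also with the line fitted alone (log2 0.73, adjusted p = 0.00887).

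AEN, an exonuclease of apoptotic cells, and CYFIP2, a regulator of actin that p53 can induce, passed in no line. AEN gave -0.46 to 0.42, highest in PER-117, where treated libraries were all above controls. CYFIP2 gave -0.48 to -0.11, negative in each line. Without the mixed libraries CYFIP2 was called lower in MOLT-16 (log2 -0.58), TALL-1 (-0.47) and Loucy (-0.39), and AEN in Loucy (-0.47). Fitted by line, AEN was called lower in Loucy (log2 -0.47, adjusted p = 0.0406) and higher in PER-117 (log2 0.40, adjusted p = 0.00803). FBXO22 (chromosome 15, 75903859 to 75942510), the substrate-binding subunit of a ubiquitin ligase, rose in PER-117 from 72.3, 65.2 and 60.0 to 105, 93.1 and 92.1 CPM. This was the smallest of the 21 PER-117 rises (log2 0.56, SE 0.12, adjusted p = 0.00124), and its libraries did not overlap. MOLT-16 gave FBXO22 0.18, TALL-1 -0.08, Loucy -0.24 and PEER -0.28, none of which passed. All treated libraries lay above the controls in MOLT-16 and below them in Loucy and PEER.

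The 4 members under the filter had few reads. PLK2, another polo-like kinase, had 2 reads with DMSO and 20 with decitabine in MOLT-16 (ratio 12.4, 95% counting interval 3.002 to 109) and 1 read with DMSO and 31 with decitabine in PER-117 (ratio 24.7, 95% counting interval 4.11 to 1006). Loucy, the deepest line, had 23 and 27 PLK2 reads. EDA2R, a receptor for ectodysplasin A2, had 4 reads with DMSO and 75 with decitabine in PER-117 (ratio 14.9, 95% counting interval 5.59 to 56.2) and at most 6 reads in any other group. ACER2, an alkaline ceramidase, had 6 reads with DMSO and 16 with decitabine in PER-117 (ratio 2.12, 95% counting interval 0.789 to 6.62) and 8 and 0 in Loucy, at least 2.49-fold lower against a floor of 3 reads over the group. PLK2 and EDA2R passed the filter without the mixed libraries. PLK2 was then called higher in MOLT-16 (adjusted p = 0.0161) and PER-117 (adjusted p = 0.000999), and EDA2R in PER-117 (adjusted p = 0.000858). EDA2R was also called with PER-117 fitted alone (adjusted p = 0.00519). SPATA18, which takes part in mitochondrial quality control, had 1 and 4 reads in Loucy and 0 in every other line. Such intervals and floors rest on reads summed over a group, so they take in counting error alone and leave out the spread between libraries. Reads may also repeat a molecule.

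Responses were then set against each other directly. For the difference between the mean log2 change of the pair and that of the other 3 lines, 16 of 28 members were called. All 16 had the larger mean change in the pair, where 2.29% of all genes were called higher and 1.44% lower. No member was called lower, also at an unadjusted p under 0.05 (0 of 28, edgeR) and by DESeq2 (0). The median difference was 0.87 over the 28 genes and 0.03 over all genes. FDXR (log2 1.39, SE 0.19, adjusted p = 5.81e-05), TRIM22 (log2 1.13, SE 0.20, adjusted p = 0.000876), DDB2 (log2 1.02, SE 0.15, adjusted p = 7.94e-05), MDM2 (log2 0.99, SE 0.13, adjusted p = 5.53e-05) and RPS27L (log2 0.96, SE 0.15, adjusted p = 0.000323) had the lowest adjusted p-values. The others were PHLDA3 (1.69), CCNG1 (0.89), PPM1D (0.87), BTG2 (0.86), SESN1 (0.80), XPC (0.68), RRM2B (0.63), FBXO22 (0.57), TIGAR (1.9), TP53INP1 (1.91) and DRAM1 (2.79). For TP53INP1 the MOLT-16 change with all libraries (1.05) was below those in TALL-1 (1.78) and PEER (1.11). In 12 of the 16 the call passed with each library left out. RRM2B and TP53INP1 were each lost in 21 of 30 such fits (adjusted p up to 0.09599 and 0.257), with TP53INP1 at log2 1.30 without MOLT-16 decitabine replicate 1, 2.93 without MOLT-16 DMSO replicate 3 and 2.65 without PER-117 DMSO replicate 3. TIGAR was lost without MOLT-16 decitabine replicate 1 (log2 1.73, adjusted p = 0.0554) or TALL-1 DMSO replicate 3 (log2 1.47, adjusted p = 0.128), and was 3.49 without TALL-1 decitabine replicate 2. The TIGAR value takes in the TALL-1 change fitted from 24 and 6 reads. It was 1.67 without the mixed libraries (adjusted p = 0.0307). DRAM1 was lost without TALL-1 DMSO replicate 3 (adjusted p = 0.117); its value rests on the TALL-1 change fitted from 3 and 0 reads and is no measure of size.

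**Figure D5:**
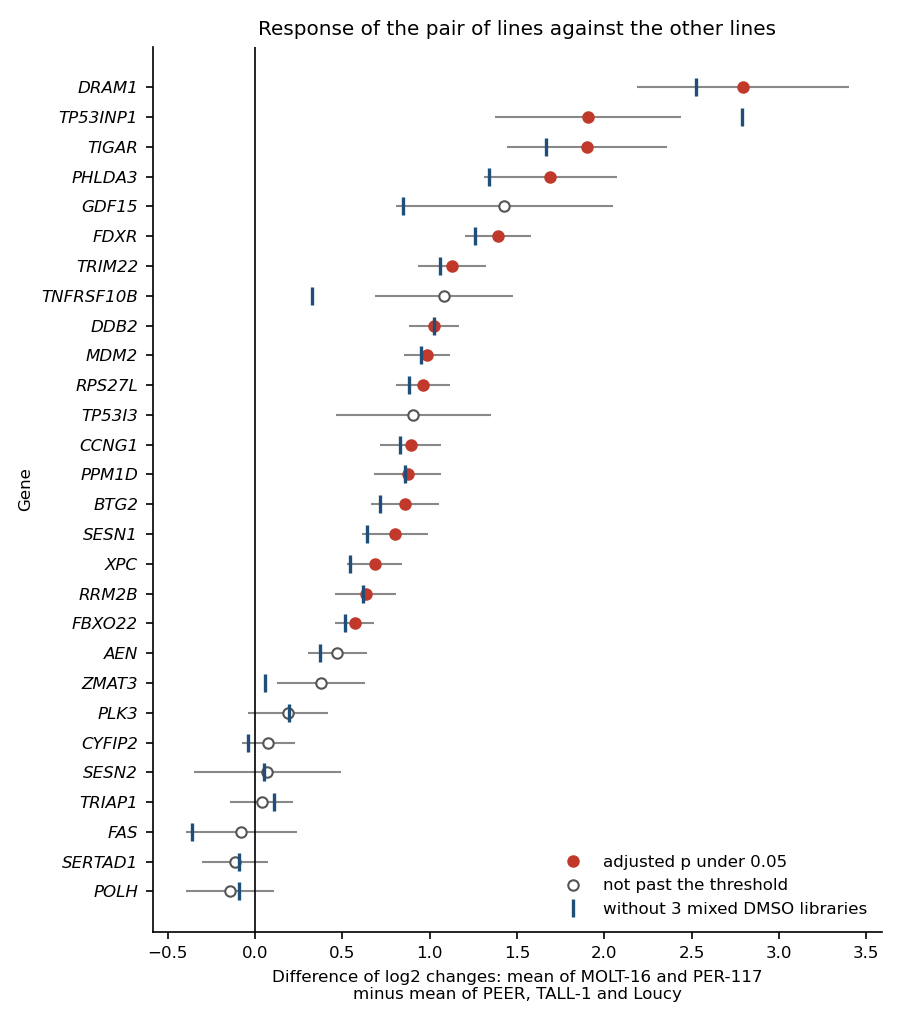
Points give, for each of the 28 genes, the mean log2 change in MOLT-16 and PER-117 minus the mean in PEER, TALL-1 and Loucy, with bars of 1 SE; filled points passed an adjusted p under 0.05. Blue ticks give the value without the 3 mixed DMSO libraries (none for TP53I3, whose remaining MOLT-16 controls held 0 reads); the 16 filled points run from 0.57 for FBXO22 to 2.79 for DRAM1.

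Without the mixed libraries 16 members were again called higher and 0 lower (backgrounds 6.28% and 4.55%), 15 of them in both fits. DRAM1 was no longer called (adjusted p = 0.0697), and TP53I3 was called on the strength of MOLT-16 controls with 0 reads. With the 5 lines taken as the replicates (limma), 2 lines against 3, no member passed and no gene did (lowest adjusted p = 0.846). At an unadjusted p under 0.05 that fit gave 13 of 28 members and 686 of 15081 genes. These tests compare these 5 lines and do not extend to other T-ALL lines. In 19 of 28 members the log2 change was higher in both lines of the pair than in each other line, as in 2000 of 15081 genes (13.3%).

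Across the 5 lines jointly, 16 of 28 members differed in their response, against 13.6% of all genes. These were the 16 called in the pair contrast with SERTAD1 in place of TIGAR (SERTAD1 adjusted p = 0.02604, TIGAR 0.0505). Within the pair, 2 members differed between MOLT-16 and PER-117 with all libraries, where 0.398% of all genes were called higher in MOLT-16 and 1.45% lower. SERTAD1 had the smaller log2 change in MOLT-16 (log2 -1.16, SE 0.30, adjusted p = 0.0371), a call lost in 7 of 30 fits with 1 library left out (adjusted p up to 0.128). TP53INP1 had the smaller change in MOLT-16 too (log2 -4.16, SE 0.98, adjusted p = 0.0192), but the difference was -2.101 (adjusted p = 0.268) without the mixed libraries. It was -5.37 without MOLT-16 decitabine replicate 1, -2.12 without MOLT-16 DMSO replicate 3 and -5.65 without PER-117 DMSO replicate 3, and it was lost without PER-117 DMSO replicate 1 or 2 (adjusted p = 0.0847 and 0.0775). Without the mixed libraries the direct test called SERTAD1 (log2 -1.235, adjusted p = 0.00862), FDXR (log2 -0.77, adjusted p = 0.0263) and SESN2 (log2 -1.92, adjusted p = 0.000178). Each of these had the lower value in MOLT-16. Of the 10 members called in PER-117 and not in MOLT-16, the direct test with all libraries called SERTAD1 and TP53INP1. A difference between the lines was thus not shown for the other 8.

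By complete separation of libraries, 23 of 28 members had all treated values above all controls in PER-117 and 15 in MOLT-16, where 21.6% and 9.18% of all genes did. In Loucy, TALL-1 and PEER these counts were 11, 9 and 8, against 23.4%, 15.5% and 12.5%. All treated values lay below all controls in 1, 0, 3, 3 and 2 members in PER-117, MOLT-16, Loucy, TALL-1 and PEER, against 14.7%, 7.33%, 15.7%, 14.1% and 11.2% of all genes.

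Untreated levels also differed between the pair and the rest. In DMSO 17 of 28 members were called higher in the pair and 5 lower, where 25.3% and 26.6% of all genes were called. FAS (2.27), GDF15 (1.67), ZMAT3 (1.41) and AEN (1.31) were among the higher, by log2 difference of mean level. The lower were TP53INP1 (-4.55), TP53I3 (-1.36), PPM1D (-0.56), SERTAD1 (-0.55) and BTG2 (-0.54). These values average the 2 lines, which could differ. FAS averaged 25.04 CPM in MOLT-16 and 7.09 in PER-117, against 4.82 in PEER, 0.726 in TALL-1 and 5.57 in Loucy. BTG2 averaged 16.7 CPM in MOLT-16 and 10.6 in PER-117, against 12.2 in PEER, 30.4 in TALL-1 and 19.4 in Loucy. SERTAD1 averaged 11.35 CPM in MOLT-16 and 6.27 in PER-117, against 16.35 in PEER, 10.5 in TALL-1 and 10.9 in Loucy. TP53I3 averaged 0.426 CPM in MOLT-16, from 6 reads, and 5.11 CPM in PER-117, against 4.085 in PEER, 1.84 in TALL-1 and 9.515 in Loucy. GDF15 averaged 3.65 CPM in PER-117 and 0.823 in MOLT-16, against 0.445 in PEER, 0.394 in TALL-1 and 0.7395 in Loucy. The MDM2 level was 0.23 higher on the log2 scale, a call lost in 24 of the alternative fits, all but 1 of them with a single library left out. The DDB2 call was lost in 11 alternative fits, and that of GDF15 without MOLT-16 DMSO replicate 2. These levels and the responses share the DMSO libraries, so no relation between them was computed.

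MDM4, a partner of MDM2, was called in no line (-0.35 to 0.25), but fell by 0.67 in MOLT-16 without the mixed libraries (adjusted p = 0.000839). CDKN1A, which encodes the cell-cycle inhibitor p21 and is the best known p53 target outside the 32, stood at 1.02, 0.893 and 2.13 CPM with DMSO and 29, 19.1 and 39.9 CPM with decitabine in MOLT-16. In PER-117 CDKN1A stood at 15.1, 12.2 and 12.2 CPM with DMSO and 61.6, 55.03 and 68.3 CPM with decitabine. It rose without overlap in both (log2 4.37, SE 0.50, adjusted p = 4.31e-06; log2 2.23, SE 0.32, adjusted p = 1.76e-05), and in PEER (log2 1.98, SE 0.41, adjusted p = 0.00378; log2 2.90 without PEER DMSO replicate 2). The PEER call was lost with that line fitted alone (adjusted p = 0.0661). In Loucy all treated CDKN1A values were above the controls without passing (log2 0.84, adjusted p = 0.0708). Loucy passed without the mixed libraries (log2 0.83, adjusted p = 0.00221) and fitted alone (log2 0.82, adjusted p = 0.00119). TALL-1 gave -0.80 with overlapping groups (adjusted p = 0.538), and 0.49 without the mixed libraries (adjusted p = 0.762). The pair exceeded the rest for CDKN1A (log2 2.63, SE 0.44, adjusted p = 0.000507). Without the mixed libraries that difference was log2 2.15 (adjusted p = 0.00266).

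Of 68 other published p53 targets measured, including CDKN1A, 20 were called higher and 0 lower in PER-117, and 8 and 0 in MOLT-16. Loucy gave 12 and 0, TALL-1 7 and 3, and PEER 3 and 0, all to be read against the shares of all genes above. Without the mixed libraries, of 69 measured, 26 were called higher and 0 lower in PER-117, 16 and 7 in MOLT-16, 18 and 1 in Loucy, 9 and 7 in TALL-1 and 4 and 0 in PEER. Their median log2 change was 0.40 in PER-117 and 0.26 in MOLT-16. For the lines without a call lower (PER-117, MOLT-16, Loucy and PEER), edgeR gave 0, 4, 1 and 3 lower genes at an unadjusted p under 0.05 and DESeq2 called 0 in each. PGF, a placental growth factor, had 2 reads with DMSO and 414 with decitabine in PER-117 (ratio 165, 95% counting interval 45.3 to 1365) and 2 reads with DMSO and 31 with decitabine in MOLT-16 (ratio 19.2, 95% counting interval 4.87 to 165). Loucy had 1 read with DMSO and 99 with decitabine for PGF (ratio 106, 95% counting interval 18.6 to 4234). FAM210B, a mitochondrial protein, had 0 reads with DMSO and 91 with decitabine in PER-117, at least 24.1-fold higher against a floor of 3 reads over the group. The pair contrast called 8 of the 68 higher and 0 lower (3 at an unadjusted p in edgeR, 2 by DESeq2), and 14 of 69 higher and 4 lower without the mixed libraries.

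The 22 cell-cycle genes known to be repressed through p21 gave no call in MOLT-16 or PER-117 with all libraries (edgeR). At an unadjusted p under 0.05 edgeR gave 4 lower and 0 higher in MOLT-16, DESeq2 called 1 lower, and both gave 0 in PER-117. TALL-1 had 8 of them higher and Loucy 4 lower, where 6.74% and 4.13% of all genes were called in those directions. Leaving out the mixed libraries, 3 were called lower in MOLT-16, 8 lower in Loucy and 11 higher in TALL-1. Among 19 ATF4 and CHOP targets, PPP1R15A, a phosphatase subunit, fell in MOLT-16 (log2 -1, adjusted p = 0.0214) and rose in PER-117 (log2 0.93, adjusted p = 0.00489). It also rose in TALL-1 (log2 1.73, adjusted p = 4.57e-06) and Loucy (log2 1.38, adjusted p = 7.79e-05). No other gene of that list was called in MOLT-16 or PER-117 by edgeR with all libraries. In TALL-1 6 of the 19 were called lower, where 6.12% of all genes were. At an unadjusted p under 0.05 edgeR gave 12 lower in MOLT-16, and DESeq2 called 5 lower in MOLT-16 and 2 higher in PER-117. In the fit that left out the mixed libraries 15 of the 19 were called lower in MOLT-16, and 3 higher and 1 lower in PER-117. TALL-1 then had 11 lower and 1 higher, PEER 5 lower and 1 higher, and Loucy 1 lower and 3 higher. The shares of all genes called lower in that fit were 7.93% in MOLT-16, 6.49% in TALL-1, 0.896% in PEER, 8.0% in Loucy and 5.6% in PER-117.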

How the data were processed

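The authors deposited read counts per gene for 30 libraries, and per the submitters' processing notes used STAR 2.4.2a, GRCh38 (hg38) and DESeq2. The sources used here name no annotation release for the counting; identifiers were matched to GENCODE 29. The deposited counts of the gene's own strand were used (12.8 to 15.2 times those of the opposite strand). Reads assigned to no gene were left out: 2.81% to 12.3% unmapped, 8.79% to 13.8% multimapping, 9.51% to 25.9% without a feature and 1.73% to 2.66% ambiguous, as shares of the totals in each file. For PEER DMSO replicates 2 and 3 the sample titles and the names of the files give exchanged numbers, and the titles were used.

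The counts of all 30 libraries were fitted with edgeR 4.0.16 (R 4.3.3), with TMM scaling, filterByExpr at a minimum count of 10, 10 group means and 20 residual degrees of freedom. The quasi-likelihood F test was adjusted by Benjamini-Hochberg over 15081 genes. SE is the log2 value divided by the root of F. DESeq2 1.42.0 and limma 3.58.1 served for alternatives. The test was tested on simulated data.

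The members, the other gene lists and the pair of lines were chosen with earlier results of these data known. Members called in a line or in the pair contrast are named. Those called without overlap and at 0.5 log2 or more in MOLT-16 or PER-117 have values in each library, and members under the filter have reads. Of the other genes, MDM4, CDKN1A and at most 3 a list are named, taken from those with the largest change among the calls in MOLT-16 or PER-117. One further gene of that rule, and the list that holds it, are not reported here.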

Additional observations from a re-analysis of the deposited data

Results flagged for a closer look

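A difference in response between lines passed its own test (edgeR, adjusted p under 0.05) in the following genes. For the mean log2 response of MOLT-16 and PER-117 minus that of the other 3 lines, DRAM1 had 2.79, TP53INP1 1.91, TIGAR 1.9, PHLDA3 1.69 and FDXR 1.39. TRIM22 had 1.13, DDB2 1.02, MDM2 0.986, RPS27L 0.961 and CCNG1 0.892 in the same contrast. PPM1D had 0.875, BTG2 0.86, SESN1 0.803, XPC 0.684, RRM2B 0.633 and FBXO22 0.57. For MOLT-16 minus PER-117, SERTAD1 had -1.16 and TP53INP1 -4.16. SERTAD1 also differed among the 5 lines jointly (adjusted p = 0.026). The members and the pair were chosen with these data known. The DRAM1 and TP53INP1 values rest on groups with 0 to 5 reads and were not called on unstranded counts. The TIGAR value takes in a TALL-1 decitabine group of 6 reads.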

How the results depend on the processing

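No call of a single gene changed direction under the alternatives run. Members called higher in PEER numbered 4 with DESeq2 size factors, without a filter, on unstranded counts, by DESeq2 and without the 3 mixed libraries, against 2. Members called lower in PEER numbered 2 without a filter and 1 by DESeq2 or without the mixed libraries. In TALL-1 3 were lower without a filter, without the mixed libraries or with the line fitted alone, and 2 on unstranded counts. In MOLT-16 1 was lower without a filter and 2 without the mixed libraries, and 2 were higher with the line fitted alone. In Loucy 2 were lower without the mixed libraries or with the line fitted alone. For MOLT-16 against PER-117, 1 was lower on unstranded counts. With the 5 lines as replicates 0 members were called in the pair contrast. The replicate block gave 15 higher members in the pair contrast, 13 in MOLT-16, 22 in PER-117, 2 lower in TALL-1 and 3 lower in the DMSO level. The replicate numbers are not stated to pair libraries: of 15 same-numbered pairs 3 had a correlation of deviations over 0.1 (-0.192 to 0.223). Leaving out 1 library in turn gave 1 to 4 higher and 0 to 1 lower in PEER, 1 to 3 lower in TALL-1, 0 to 2 lower in MOLT-16, 3 to 8 higher and 0 to 2 lower in Loucy, and 0 to 2 lower for MOLT-16 against PER-117. Of the calls on single genes, 2432 passed and 178 did not over these fits. The same counts were 82 and 5 without the mixed libraries, 80 and 7 on unstranded counts, and 87 and 0 with the stricter filter or DESeq2. The cause was not tested, except that fits on fewer libraries or 1 line have fewer samples. MOLT-16 has the fewest reads, 2.20 M to 5.26 M.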
